A study of Mus musculus with 9 samples.

Results

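Fibrillar collagens are the proteins that form the banded fibrils of bone, cartilage, skin and tendon. The 10 genes described here encode the chains of collagen types I (Col1a1, Col1a2), III (Col3a1), V (Col5a1, Col5a2, Col5a3), XI (Col11a1, Col11a2), XXIV (Col24a1) and XXVII (Col27a1). They were taken by name as members of 1 gene family, by a rule that uses no measured value. They are 10 of the 39179 genes listed in each library, and all 10 passed the filter on low counts. The remaining fibrillar chain, Col2a1 of type II, is given beside them because type II is the main collagen of cartilage and its chain also serves in type XI molecules.

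The study compared the ossification front (OF), the zone below the growth plate where bone replaces cartilage, in femurs of juvenile mice aged 4 weeks and adult mice aged 12 weeks. Single capillaries with the cells around them were cut out by laser microdissection, and their RNA was sequenced in 5 juvenile and 4 adult libraries. Both groups were Tg(TIE2GFP)287Sato/J mice on a C57BL/6 background, which carry green fluorescent protein under the endothelial Tie2 promoter, so that vessels could be seen for dissection. No treatment or further allele separated the groups, so age was the only labelled difference. The labels do not name the animal behind each library, and the p-values below measure the spread between these libraries.

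A fibrillar procollagen is made of 3 chains that wind into a long triple helix, which requires glycine at regular steps along each chain (Gly-X-Y). Propeptides at both ends are then cut off, and the molecules assemble into fibrils that lysyl oxidases cross-link. Osteoblasts deposit bone matrix made mostly of type I collagen, a molecule of 2 chains from Col1a1 and 1 from Col1a2. Type V collagen is built into type I fibrils and is known to start their assembly and to limit their width. Type XI does the same for the type II fibrils of cartilage. Type III accompanies type I in skin, vessel walls and other soft tissues, and types XXIV and XXVII are minor fibrillar collagens of developing bone and cartilage.

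What makes these genes a family can be read in their exons, many of which are 54 bases long and hold 6 Gly-X-Y repeats each. The first 54-base exon made wholly of such repeats is given here for 7 members that stand for the family's subgroups, read 5′ to 3′ on the coding strand of GRCm38. Capitals mark the glycine codons.
Col1a1: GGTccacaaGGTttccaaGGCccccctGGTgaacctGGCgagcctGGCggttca
Col1a2: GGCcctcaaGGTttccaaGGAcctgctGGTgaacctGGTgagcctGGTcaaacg
Col5a2: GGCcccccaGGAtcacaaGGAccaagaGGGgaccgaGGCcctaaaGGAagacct
Col5a1: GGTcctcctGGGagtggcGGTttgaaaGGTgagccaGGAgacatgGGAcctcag
Col11a2: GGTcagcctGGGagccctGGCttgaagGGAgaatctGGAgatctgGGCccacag
Col24a1: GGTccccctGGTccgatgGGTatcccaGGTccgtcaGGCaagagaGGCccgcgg
Col27a1: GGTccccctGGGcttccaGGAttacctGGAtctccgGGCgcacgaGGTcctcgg

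These are exon 8 of Col1a1 at chr11:94939904-94939957 (+) and of Col1a2 at chr6:4515481-4515534 (+), exon 6 of Col5a2 at chr1:45434892-45434945 (-), exon 15 of Col5a1 at chr2:27965251-27965304 (+) and of Col11a2 at chr17:34051480-34051533 (+), and exon 4 of Col24a1 at chr3:145320661-145320714 (+) and of Col27a1 at chr4:63231792-63231845 (+). Each exon is coding throughout and holds 6 glycine codons in frame. Col1a1 and Col1a2, whose chains meet in type I molecules, are identical at 42 of 54 bases (77.8%), and Col5a1 and Col11a2 at 38 (70.4%). The number of this exon within the gene also differs between the members. It is number 8 in both type I genes, 6 in Col3a1 and Col5a2 (and in Col2a1), 15 in Col5a1, Col5a3, Col11a1 and Col11a2, and 4 in Col24a1 and Col27a1. By this number Col5a2 goes with the type III gene and not with the other type V genes, although the exons of Col5a2 and Col3a1 are identical at only 29 of 54 bases (53.7%). Col5a2 also lies next to Col3a1. Col3a1 (+ strand) and Col5a2 (- strand) converge on chromosome 1 with 24614 bases between their ends.

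Over the whole coding part, exons of 45, 54, 99, 108 or 162 bases made up 70.3% to 86% of the inner coding exons of the 10 members, with 21 to 33 exons of 54 bases in each gene. Among 158987 inner coding exons of all protein-coding genes, 3.56% had one of these lengths. Exon length is a property of the annotation and carries no information on age. Even the most alike of the first repeat exons, those of Col1a1 and Col1a2, were identical at only 42 of 54 bases. Whether reads mapped to more than 1 member was not tested, and how the counting treated such reads is not given in the sources used here.

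The libraries held 4856833 to 8077362 counts, so that 3 counts, taken as the limit of detection by counting error alone, correspond to 0.371 to 0.618 CPM, which are counts scaled to the library total. Markers of osteoblasts, the main makers of type I collagen in bone, were high at both ages, with a summed level of 24881 to 35982 CPM in juvenile and 15667 to 29804 CPM in adult libraries. Of these 12 genes, 5 were higher in juvenile libraries and 2 (the near-identical Bglap and Bglap2) in adult ones. All 8 erythroid markers were higher in adult libraries in edgeR and DESeq2 (7 in limma), with sums of 451 to 2685 CPM against 5118 to 41824 CPM, and so were all 7 neutrophil markers in edgeR (6 in DESeq2, 1 in limma). Osteoclast marker sums were 8079 to 12995 CPM in juvenile and 15141 to 21279 CPM in adult libraries, with 2 of 7 genes (Acp5 and Atp6v0d2) called higher in adult ones. Macrophage marker sums were 439 to 784 CPM and 1040 to 1794 CPM, with 1 of 7 genes called, so that neither sum overlapped between the ages. Both sums came mostly from few genes. Acp5 had 5867 to 8019 CPM in juvenile and 12094 to 16694 CPM in adult libraries. Of the 7 osteoclast genes, 2 had fitted values above 0 on the juvenile side, without a call. Csf1r had 229 to 368 CPM and 629 to 780 CPM, and Cd68 165 to 406 CPM and 380 to 599 CPM. None of the 9 endothelial markers was called at either age (0 also at an unadjusted p under 0.05 and with DESeq2 or limma), and their sums were 375 to 677 CPM and 556 to 783 CPM. Juvenile libraries 4 and 5 had 439 to 524 counts of the Y-linked gene Ddx3y, which had at most 1 count in the other 7, while Xist had at least 2965 counts in those 7. By these counts juvenile libraries 4 and 5 came from males, and the other 7, all adult ones among them, from females. Sex is not labelled and was partly confounded with age, and its part in the values was not tested. Calls that were lost without juvenile libraries 4 and 5 are given with both values. In such bulk RNA, fewer cells of a type and less RNA per cell cannot be told apart.

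Of the 10 fibrillar collagen genes, 6 were higher in juvenile libraries, and the other 4 did not pass the test. Together the 10 genes took 14.3% to 17.2% of all counts in a juvenile library and 6.01% to 8.13% in an adult one, and the type I chains alone made 93.7% to 94.5% and 91.8% to 92.8% of those counts. The 6 calls were made by edgeR's quasi-likelihood test at an adjusted p under 0.05, and they were 3 (Col1a1, Col1a2 and Col5a1) with the replicate block or without juvenile libraries 4 and 5. Of the 13418 genes tested, 1.99% were called in that direction and 3.88% in either direction. The normalised read counts of all 6 did not overlap between the ages, which was so, with juvenile above adult, for 5.07% of the tested genes. No member was called higher in adult libraries (edgeR, DESeq2 and limma each gave 0, and edgeR gave 0 at an unadjusted p under 0.05), against 1.89% of all genes. The median log2 fold change, juvenile minus adult, was 0.85 over the 10 members and -0.01 over all genes tested. The called members were both type I chains, Col5a1, Col5a2, Col11a1 and Col11a2. All 6 calls were made again with macrophage, neutrophil, erythroid, B cell and megakaryocyte markers left out of the library totals. That setting changes the scaling alone (Col1a1 stayed at 1.37), so it cannot show what the mix of cells contributed. The part in these values of the osteoblast markers, 5 of 12 of which were higher in juvenile libraries too, and of the osteoclast and macrophage markers, whose sums were higher in adult libraries, was not tested.

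**Figure D1:**
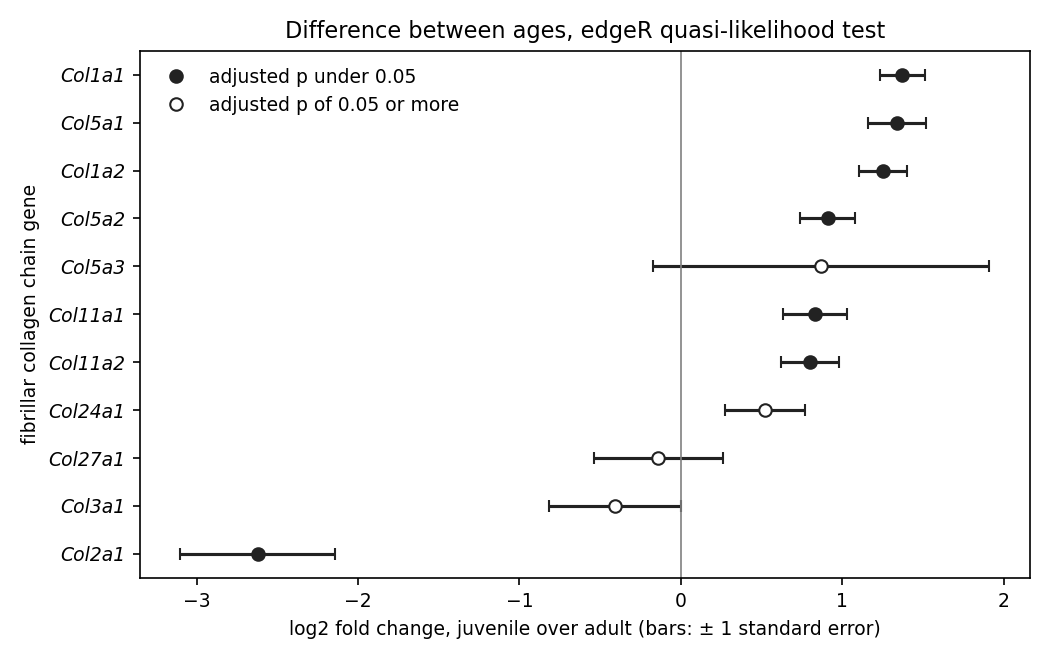
Log2 fold change of the 10 fibrillar collagen genes and Col2a1 (juvenile over adult, x axis; genes on the y axis) from the edgeR fit of 5 juvenile and 4 adult libraries, with bars of 1 standard error and filled points for an adjusted p under 0.05. Col1a1 (1.37) and Col5a1 (1.34) lie farthest to the juvenile side, the open points of Col3a1, Col5a3, Col24a1 and Col27a1 did not pass, and Col2a1 (-2.62) lies on the adult side.

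Of the type I chains, Col1a1 (ENSMUSG00000001506; chr11:94936224-94953042, + strand), which encodes the pro-alpha1(I) chain, had 497788, 457465, 398456, 518336 and 507087 normalised read counts in juvenile libraries 1 to 5. The adult libraries 1 to 4 had 198976, 213262, 176473 and 146950. The lowest juvenile library lay well above the highest adult one. The juvenile mean was 475826 ± 48964 (SD, n = 5) against an adult mean of 183915 ± 28924 (SD, n = 4), a log2 fold change of 1.37 (SE 0.14, 2.59-fold, adjusted p = 0.000426, edgeR), the smallest adjusted p among the members.

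Col1a2 (ENSMUSG00000029661; chr6:4504814-4541544, + strand) encodes the pro-alpha2(I) chain. Its normalised read counts were 437615, 518971, 473899, 580886 and 565297 in the juvenile libraries and 202612, 245361, 249958 and 165762 in the adult ones. The groups again did not overlap, and juvenile libraries 4 and 5 were the highest. The log2 fold change was 1.25 (SE 0.15, 2.39-fold, adjusted p = 0.00109, edgeR).

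Both type I calls held without juvenile libraries 4 and 5 (Col1a1 1.30, adjusted p = 0.0116; Col1a2 1.15, adjusted p = 0.022, edgeR). Both also held with the replicate number as a block (adjusted p = 0.0249 and 0.0425), with any single library left out, and with library totals that left out the 10 members themselves.

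**Figure D2:**
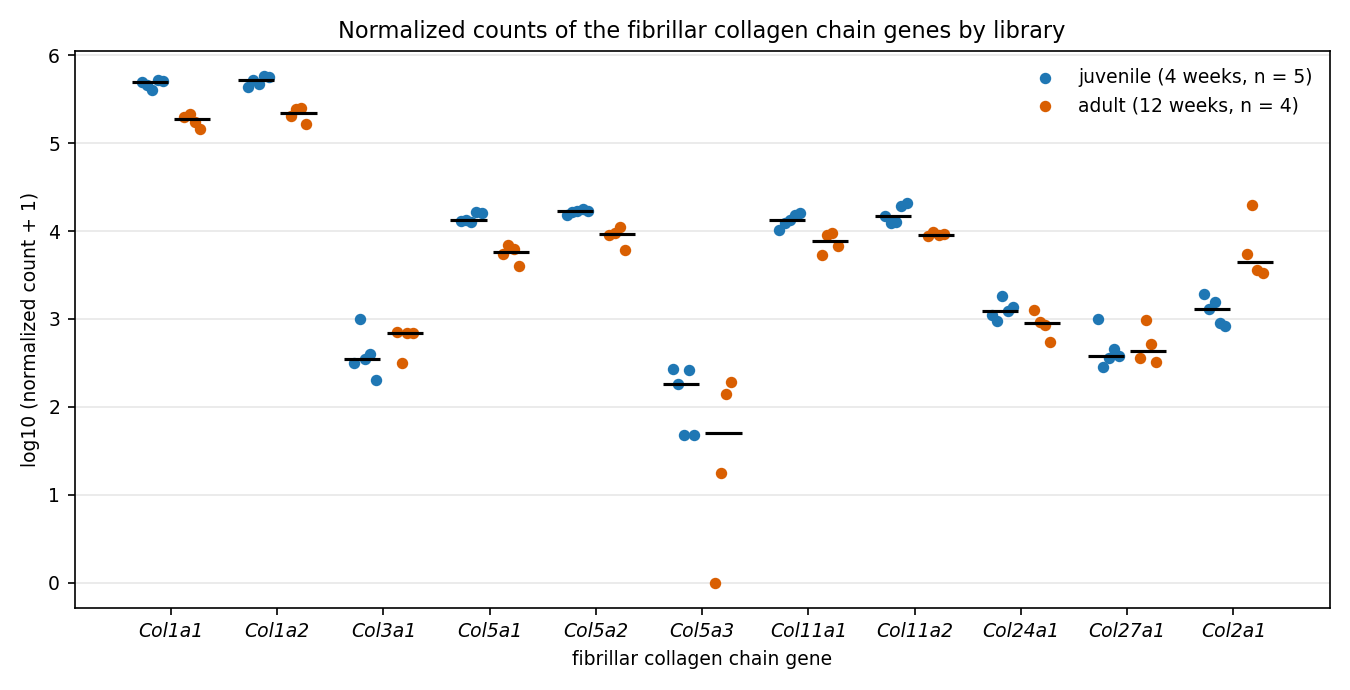
Log10 of the normalised read count plus 1 (y axis) of each fibrillar collagen gene and Col2a1 (x axis) in the 5 juvenile and 4 adult libraries, with 1 point per library and a black line at the group median. The ages are apart for Col1a1, Col1a2, Col5a1, Col5a2, Col11a1 and Col11a2, and in the other direction for Col2a1, while Col3a1, Col5a3, Col24a1 and Col27a1 overlap.

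Of the type V chains, Col5a1 (ENSMUSG00000026837; chr2:27886425-28039514, + strand), whose product is present in nearly every type V molecule, had 12907, 13494, 12657, 16268 and 16195 normalised read counts in the juvenile libraries. The adult values were 5424, 7025, 6259 and 3955. The groups were apart by a wide margin. The log2 fold change of 1.34 (SE 0.18, 2.52-fold, adjusted p = 0.00239, edgeR) was close in size to those of the type I chains, and it remained called without juvenile libraries 4 and 5 (1.20, adjusted p = 0.0389). Col5a1 shares 212 bases with the antisense transcripts 2810430I11Rik and Gm13372, and the strand setting of the counting is not stated, so a small part of its counts may belong to them.

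Col5a2 (ENSMUSG00000026042; chr1:45374321-45503282, - strand), the usual partner of Col5a1 in the type V molecule, had 15340, 16596, 16784, 17762 and 16918 normalised read counts in the juvenile libraries and 9053, 9387, 10995 and 6120 in the adult ones. The juvenile libraries lay close together, at 16680 ± 872 (SD, n = 5), and all were above the adult ones at 8889 ± 2031 (SD, n = 4). The log2 fold change was 0.91 (SE 0.17, 1.88-fold, adjusted p = 0.0118, edgeR). Without juvenile libraries 4 and 5 its size was nearly the same, 0.87, and the call was lost (adjusted p = 0.103). It was also lost with the replicate block (adjusted p = 0.0819).

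Col5a3 (ENSMUSG00000004098; chr9:20770050-20815067, - strand) encodes a further type V chain of restricted distribution and was the least abundant member per transcript length. Its normalised read counts were 46.6 to 267 in juvenile libraries and 0 to 193 in adult ones. Adult library 1 had no count, which at its depth allows up to 0.371 CPM. The ages overlapped widely, and the log2 difference of 0.87 had an SE of 1.04 (adjusted p = 0.76, edgeR). Libraries of the same age differed by more than the ages did.

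The type XI chains are textbook cartilage collagens, and per transcript length they stood beside Col5a1 and Col5a2 in these bone samples. Col11a1 (ENSMUSG00000027966; chr3:114030540-114220718, + strand) had 10410, 12265, 13472, 15241 and 16159 normalised read counts in the juvenile libraries. The adult libraries had 5305, 8944, 9522 and 6726. The closest libraries of the ages, juvenile 1 and adult 3, differed by less than the spread within either group. The log2 fold change was 0.83 (SE 0.20, 1.77-fold, adjusted p = 0.0371, edgeR). This call was lost without juvenile 2 (0.86, adjusted p = 0.061), juvenile 3 (0.83, 0.0835), juvenile 4 (0.78, 0.0966), juvenile 5 (0.75, 0.099), adult 1 (0.67, 0.0699) or adult 4 (0.75, 0.0813).

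Col11a2 (ENSMUSG00000024330; chr17:34039437-34066685, + strand) had 14889, 12503, 12696, 19168 and 20940 normalised read counts in the juvenile libraries and 8858, 9862, 8983 and 9242 in the adult ones. The adult libraries were nearly alike, and the juvenile ones were spread, with libraries 4 and 5 highest. The log2 fold change was 0.80 (SE 0.18, 1.74-fold, adjusted p = 0.0263, edgeR). The call was lost without juvenile 4 (0.72, adjusted p = 0.0741), juvenile 5 (0.68, 0.0697), adult 1 (0.76, 0.0559), adult 3 (0.77, 0.0687) or adult 4 (0.78, 0.0543). Without juvenile libraries 4 and 5 together, neither type XI gene was called (Col11a1 0.66, adjusted p = 0.243; Col11a2 0.54, adjusted p = 0.151), and neither was with the replicate block (adjusted p = 0.112 and 0.144).

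Col2a1 (ENSMUSG00000022483; chr15:97975602-98004695, - strand), the type II chain, moved the other way from its type XI partners. It had 1925, 1305, 1543, 901 and 827 normalised read counts in the juvenile libraries and 5440, 19566, 3647 and 3316 in the adult ones. All adult libraries were above all juvenile ones, and adult library 2 stood far above the rest. The log2 fold change was -2.62 (SE 0.48, 6.14-fold higher in adult, adjusted p = 0.0118, edgeR), and the call was lost without juvenile libraries 4 and 5 (-2.33, adjusted p = 0.14) and with the replicate block (-2.09, adjusted p = 0.0708). Without adult library 2 alone it was smaller, -1.69, and still called (adjusted p = 0.00602). Of the 11 marker genes, Col2a1 among them, 8 were tested, and Comp was the only other one called higher in adult libraries. Summed without Col2a1, the other 10 had 236, 249, 745, 203 and 226 CPM in the juvenile libraries and 206, 1900, 16.1 and 259 CPM in the adult ones. These sums overlapped between the ages, and adult library 2 was the highest in them as well as in Col2a1 itself, which had 3207 CPM there. Most of the juvenile sums came from Col10a1, the collagen of hypertrophic chondrocytes, at 187 to 645 CPM in juvenile and 2.19 to 730 CPM in adult libraries, while Acan was at 5.3 to 53.7 CPM and 0 to 129 CPM. Matn1 was at 0 in every juvenile library and at 0 to 9.1 CPM in adult ones. The part of cartilage RNA in the values of Col2a1, Col11a1 and Col11a2 was not tested.

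Col3a1 (ENSMUSG00000026043; chr1:45311538-45349706, + strand), the type III chain, was a minor transcript in these samples. It had 313, 992, 350, 403 and 202 normalised read counts in the juvenile libraries and 706, 310, 697 and 692 in the adult ones. In each age 1 library stood apart, juvenile 2 upwards and adult 2 downwards, so that the groups overlapped. The log2 difference was -0.41 (SE 0.41, adjusted p = 0.702, edgeR). Fibroblast markers, from cells that usually express Col3a1, were low as well, at 137 to 250 CPM and 159 to 359 CPM in sum over 6 genes, with Clec3b at 0 in all libraries.

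Of the minor chains, Col24a1 (ENSMUSG00000028197; chr3:145292472-145552011, + strand), known as a marker of bone formation in developing skeleton, had 958 to 1801 normalised read counts in juvenile libraries (median 1231) and 550 to 1269 in adult ones. Its log2 difference of 0.52 (SE 0.25, adjusted p = 0.307, edgeR) did not pass. Col27a1 (ENSMUSG00000045672; chr4:63214004-63334991, + strand), a collagen of growth-plate cartilage, had 285 to 991 and 326 to 962 counts. In each age 1 library was high, juvenile 1 and adult 2. Its log2 difference was -0.14 (SE 0.40, adjusted p = 0.92, edgeR).

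Dividing the counts by transcript length allowed the levels of different chains to be compared within a library. For these levels, CPM used the library total times its TMM scaling factor. The factors were 0.9147 to 0.9708 in juvenile and 1.033 to 1.119 in adult libraries. On the scale of CPM per kilobase, Col1a2 had 15353 ± 1798 (SD, n = 5) and Col1a1 12785 ± 1316 in juvenile libraries, and 6433 ± 1181 (SD, n = 4) and 4941 ± 777 in adult ones. The ranges of both type I chains overlapped at both ages. Their order turned with the length used, as did others given here. With the union of all annotated exons in place of the transcript with the longest coding sequence, a choice added after the data were seen, Col1a1 (11551 and 4465) was above Col1a2 (6608 and 2769). The known composition of 2 alpha1 chains to 1 alpha2 chain can therefore not be read from these levels.

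Below a wide gap came Col11a2, Col5a2, Col11a1 and Col5a1, at 474 ± 113, 401 ± 21, 281 ± 47.8 and 271 ± 33.8 CPM per kilobase in juvenile libraries. In adult libraries the same 4 genes were at 273 ± 13.2, 214 ± 48.8, 158 ± 40.7 and 107 ± 24.9. With union exon lengths Col5a1 was above Col11a1 at both ages (268 against 169 and 106 against 95.3). Among these neighbours only Col5a2 and Col11a1 in juvenile libraries had ranges that did not overlap. Col24a1 (28.8 ± 7.24 and 20.1 ± 6.59), Col3a1 (12.9 ± 8.9 and 17.2 ± 5.56), Col27a1 (10.3 ± 5.96 and 11.4 ± 6.12) and Col5a3 (4.16 ± 2.84 and 2.27 ± 2.45) formed a lowest tier. Within that tier, only Col27a1 and Col5a3 in adult libraries did not overlap as neighbours. Col2a1 stood at 40.6 ± 14.2 in juvenile libraries, below both type XI chains, and at 249 ± 243 in adult ones, with ranges that overlapped those of Col11a2 and Col5a2. With union exon lengths its adult mean (138) was below that of Col5a2 (148).

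As shares of the 10 members' level per length, type I made 95% ± 0.294 in juvenile and 93.4% ± 0.432 in adult libraries, and the ranges of 94.7% to 95.4% and 92.9% to 93.8% did not overlap. Type V made 2.29% ± 0.0987 and 2.64% ± 0.24, and type XI 2.53% ± 0.312 and 3.59% ± 0.526, again without overlap for type XI (2.15% to 2.97% and 3.07% to 4.32%). Types III, XXIV and XXVII together stayed far below 1%. Adult libraries thus had a smaller part of their counts on these genes and, within them, a slightly smaller part on type I. Shares add up to a whole, so the type XI share can be larger in adult libraries while both type XI genes are lower there.

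**Figure D3:**
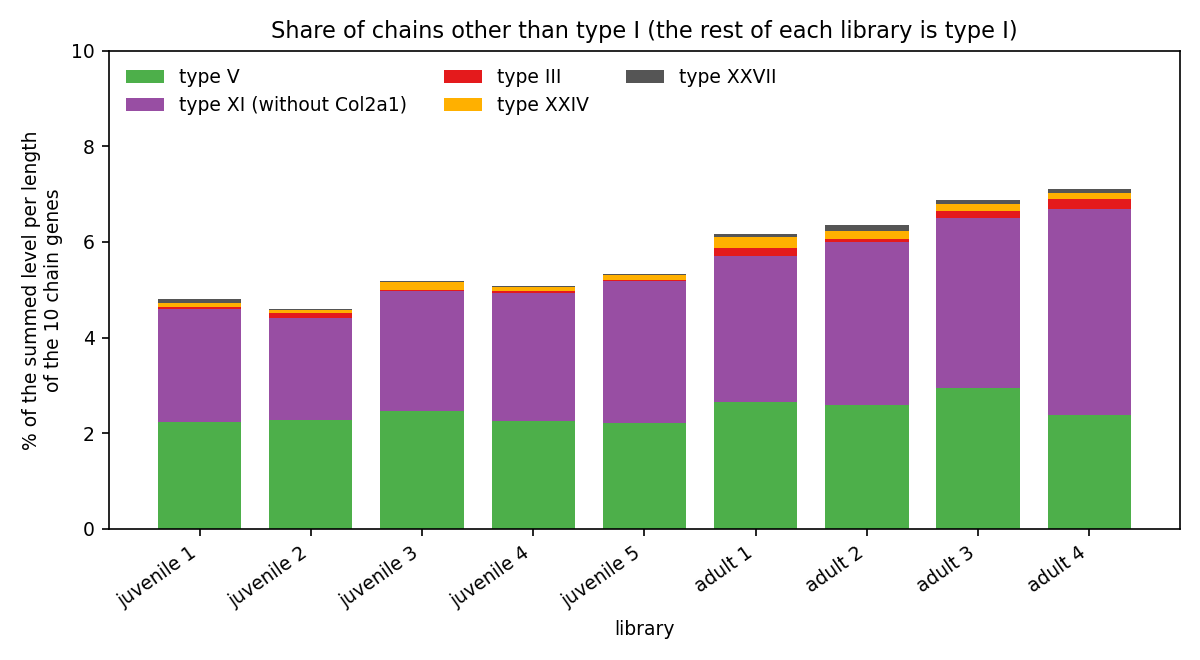
Stacked shares of types V, XI, III, XXIV and XXVII (percent of the summed level per length of the 10 genes, y axis) in each of the 5 juvenile and 4 adult libraries (x axis), the rest of each library being type I. The type XI share was 2.15% to 2.97% in juvenile and 3.07% to 4.32% in adult libraries, and types III, XXIV and XXVII are thin bands at both ages.

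Ratios of 2 chains within a library do not depend on library scaling and show whether partners changed together. For each of 11 ratios, the ages were tested by exact permutation, two-sided and over all 126 ways to assign 9 libraries as 5 and 4, for which the smallest possible p is 0.00794. No ratio passed after Benjamini-Hochberg adjustment over the 11, while 5 had an unadjusted p under 0.05. The smallest adjusted p was 0.0873. Without juvenile libraries 4 and 5, none of the 11 had an unadjusted p under 0.05, where the smallest was 0.0571 (Col5a1 to Col5a2) and the 35 assignments of 7 libraries allow 0.0286.

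The ratio of the type V partners, Col5a1 to Col5a2, was the only one of the 11 without overlap. Per length it was 0.663, 0.641, 0.594, 0.722 and 0.754 in the juvenile libraries and 0.472, 0.59, 0.449 and 0.509 in the adult ones. The highest adult library, adult 2, came close to the lowest juvenile one. The log2 difference was 0.42 (exact permutation p = 0.00794, adjusted p = 0.0873), which did not pass the correction for 11 ratios.

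The ratio of the type I partners, Col1a1 to Col1a2, was 0.758 to 1.03 per length in juvenile libraries and 0.637 to 0.886 in adult ones. The log2 difference was 0.11 (exact permutation p = 0.444, adjusted p = 0.611). Col5a1 to Col1a1 was 0.0183 to 0.0225 in juvenile and 0.019 to 0.025 in adult libraries, with a log2 difference of -0.02 (exact permutation p = 0.865, adjusted p = 0.865). The type XI partners, Col11a2 to Col11a1, were at 1.34 to 2.03 and 1.34 to 2.37, with a log2 difference of -0.08 (exact permutation p = 0.69, adjusted p = 0.76).

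The remaining ratios set other pairs of chains against each other, with the first chain named as the numerator. Col3a1 to Col1a1 was lower in juvenile libraries by a log2 difference of -1.93 (exact permutation p = 0.0238, adjusted p = 0.0873), at a median of 0.00083 against 0.004 per length, and Col24a1 to Col1a1 by -0.83 (exact permutation p = 0.0317, adjusted p = 0.0873). Col11a1 to Col5a1 was 0.884 to 1.17 in juvenile and 1.07 to 1.86 in adult libraries, a log2 difference of -0.51 (exact permutation p = 0.0238, adjusted p = 0.0873), and Col11a1 to Col1a1 differed by -0.53 (exact permutation p = 0.0794, adjusted p = 0.146). Each of these pairs overlapped between the ages. Col5a2 to Col3a1, the neighbours on chromosome 1, differed by 1.49 (exact permutation p = 0.0397, adjusted p = 0.0873), Col27a1 to Col24a1 by -0.70 (exact permutation p = 0.222, adjusted p = 0.349) and Col5a3 to Col5a1 by 1.24 (exact permutation p = 0.643, adjusted p = 0.76). The last value rests on the 0.5 counts added to adult library 1, which had none of Col5a3, and was 0.39 with 5 counts added and -0.69 without that library.

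**Figure D4:**
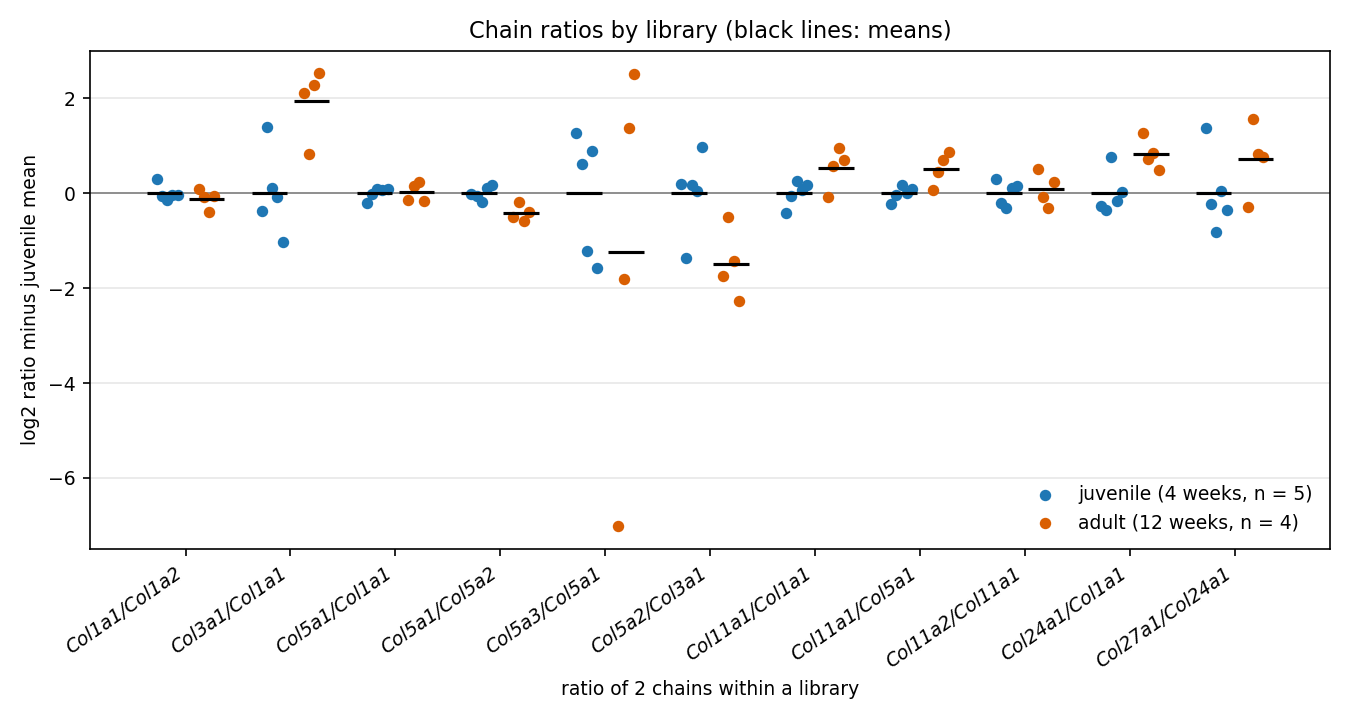
Log2 ratio of 2 chains within each library, minus the juvenile mean of that ratio (y axis), for the 11 ratios (x axis) in 5 juvenile and 4 adult libraries, with 1 point per library and black lines at the group means. Col5a1/Col5a2 is the one ratio whose ages do not overlap, and the lowest point belongs to Col5a3/Col5a1 in adult library 1, which had 0 counts of Col5a3.

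Genes that process, fold and bind fibrillar collagens were read from 9 lists of 68 genes, Col2a1 among them. Of these, 63 were tested, 18 were higher in juvenile libraries and 1, Col2a1, was higher in adult libraries. Over all 13418 genes tested, 1.99% were higher in juvenile and 1.89% in adult libraries, with a median log2 fold change of -0.01. The lists differ in size and were chosen with earlier results of these data known, so the counts per list only describe them. Among the propeptide-cleavage genes 3 of 6 tested were higher in juvenile libraries, with a list median of 1.14. They included Pcolce, an enhancer of C-propeptide cleavage (log2 fold change 1.86, SE 0.18, adjusted p = 0.000206), and Bmp1, the protease itself (1.36, SE 0.16, adjusted p = 0.00106). Of the lysyl oxidases 1 of 5 passed, Lox (1.69, SE 0.20, adjusted p = 0.00106), with a list median of 1.18.

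Inside the cell, 5 of 15 genes of prolyl and lysyl modification were higher in juvenile libraries (list median 0.66), led by P3h3 (1.44, SE 0.23, adjusted p = 0.00535) and P3h1 (0.91, SE 0.15, adjusted p = 0.00626), both of the prolyl 3-hydroxylase family. Of the folding and export genes 4 of 8 passed (median 0.92). Among them were Serpinh1, which encodes the collagen chaperone HSP47 (1.22, SE 0.18, adjusted p = 0.00309), and Sparc, which encodes a collagen-binding matrix protein of bone (1.21, SE 0.17, adjusted p = 0.00263). Of the osteoblast transcription factors 3 of 5 tested passed (median 0.62). Runx2, Sp7 and Dlx5 of this list are also among the osteoblast markers. The called factors included Creb3l1, known to activate Col1a1 in osteoblasts (1.58, SE 0.19, adjusted p = 0.00109), and Sp7, which osteoblast differentiation requires (1.02, SE 0.23, adjusted p = 0.027).

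In the lists outside collagen synthesis, at most 1 gene each was called. Over all genes tested, 1.99% were called higher in juvenile libraries. Lists this short cannot show a contrast with the synthesis lists. Of the fibril-associated collagens and regulators 1 of 8 tested passed, the small proteoglycan gene Bgn (0.74, SE 0.18, adjusted p = 0.0355), and the list median was -0.43. The lowest values in this list were those of Col9a1, Col9a2 and Col9a3, at -2.59, -2.86 and -2.06. Their SEs were wide (1.20, 1.15 and 1.35), and none was called. Of the 8 tested genes, 3 had values above 0. Of the degradation genes 1 of 6 passed, the gelatinase gene Mmp2 (1.42, SE 0.17, adjusted p = 0.00109), with a median of 0.19. None of the 9 receptor and uptake genes passed in edgeR or limma, although 3 had an unadjusted p under 0.05 and DESeq2 called 2. The receptor gene with the smallest p was Itga10 (0.84, SE 0.24, adjusted p = 0.0744, edgeR), which passed without adult 2 (0.98, adjusted p = 0.0479). The count of 18 was 11 without juvenile 3, juvenile 4, juvenile 5 or adult 4, and 7 without juvenile libraries 4 and 5 together. The call of Bgn was lost without juvenile 2, 3, 4 or 5 or adult 3 or 4 (adjusted p = 0.0654 to 0.0996), and that of Sp7 without juvenile 3, 4 or 5 or adult 3 or 4 (adjusted p = 0.058 to 0.0734). Without juvenile libraries 4 and 5 together, P3h3 (adjusted p = 0.0761), P3h1 (0.0728), Bgn (0.228) and Sp7 (0.17) were not called, while Pcolce, Bmp1, Lox, Serpinh1, Sparc, Mmp2 and Creb3l1 were. With the replicate block in edgeR, Sparc (adjusted p = 0.0529), P3h3 (0.0529), P3h1 (0.0733), Bgn (0.183) and Sp7 (0.14) were not called.

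For each member, the 2 genes outside the family with the most similar profile were sought among 9784 genes, as the root mean square (RMS) difference between log2 CPM values centred over the 9 libraries. Col1a2 and Col5a1 had the same nearest gene, Sparc, at 0.09 and 0.12, followed by Slc39a10 (0.14) and Ccnd2 (0.16). Col1a1 was nearest to Mmp2 (0.15) and C1qtnf6 (0.16), and Col5a2 to Calu (0.11) and Rnaset2a (0.12). The type XI chains had other neighbours, Zfp260 (0.14) and Uso1 (0.15) for Col11a1 and Ano6 (0.16) and Nfic (0.17) for Col11a2. Col24a1 was nearest to Fam3c (0.17) and Ndel1 (0.18).

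Col27a1, Col3a1 and Col5a3 had no match closer than 0.29. The nearest genes were Secisbp2 (0.29) and Unk (0.30) for Col27a1, ENSMUSG00000062381 (0.30) and Clcc1 (0.36) for Col3a1, and B9d2 (0.78) and Ggt7 (0.85) for Col5a3. Within the family, Col1a2 and Col5a1 were the closest pair, at 0.09, followed by Col1a1 with Col5a1 at 0.14 and Col1a1 with Col1a2 at 0.17. By these values Col5a1 lay nearer to each type I chain than those lay to each other. For Col1a1 the distances of 0.14 and 0.17 are close and have no measure of error. They include juvenile library 1, whose ratio of Col1a1 to Col1a2 stood apart from the other juvenile libraries. All these distances are over the same 9 libraries and include the age difference itself.

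**Figure D5:**
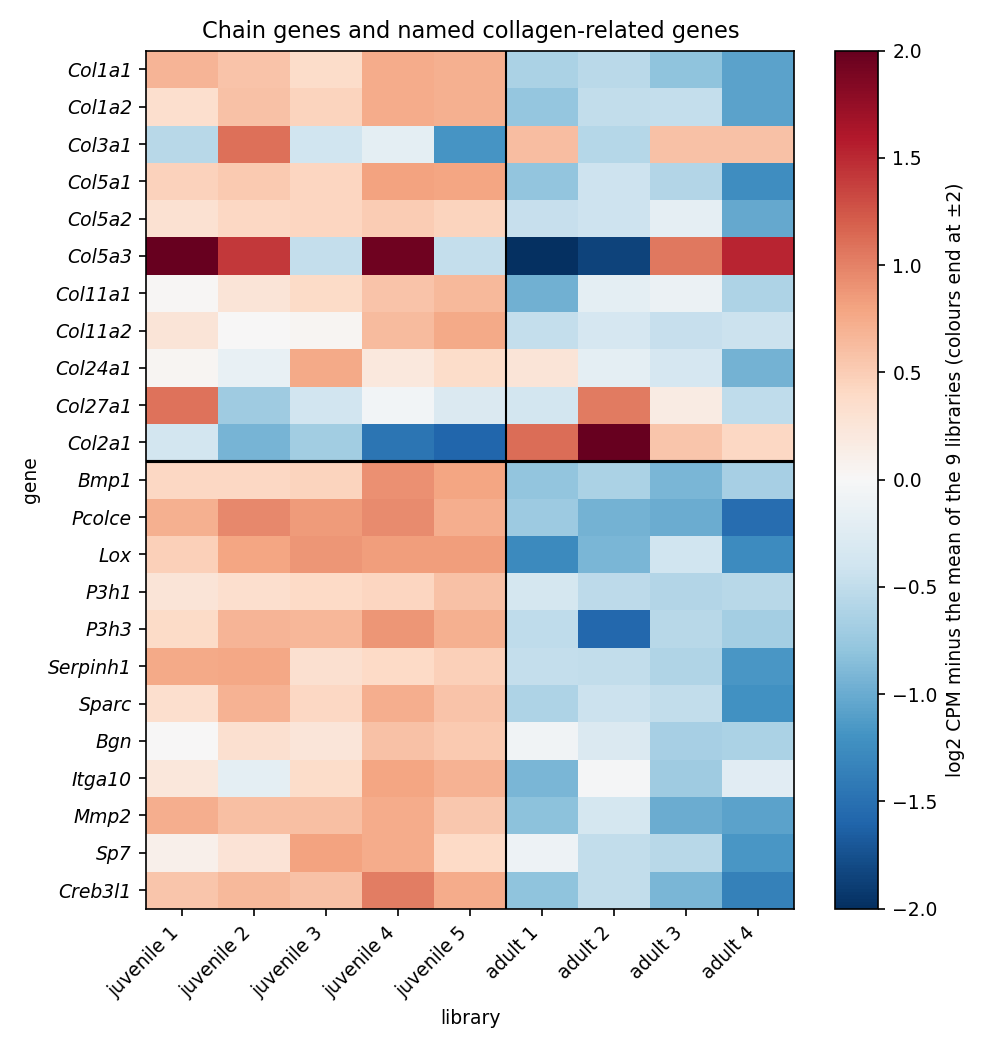
Heat map of log2 CPM minus the mean of the 9 libraries (colour, red above and blue below, ending at ±2) for the fibrillar collagen genes and Col2a1 (above the line) and the named collagen-related genes (below it), with genes on the y axis and libraries on the x axis. Col1a1, Col1a2, Col5a1 and Col5a2 are above their mean in all juvenile and below it in all adult libraries, while Col3a1, Col5a3 and Col27a1 change sign within an age.

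The promoters of the co-moving chains Col1a2 and Col5a1 and of Col3a1, which did not move with them, are shown from 120 bases before to 20 bases after the RefSeq transcription start (GRCm38.p6, read 5′ to 3′ on the coding strand). RefSeq windows were matched for 8 of the 10 members, and Col1a1 and Col5a2 had no entry. Capitals mark matches to TATAAA (coding strand only), CCAAT and GGGCGG (both strands).
Col1a2: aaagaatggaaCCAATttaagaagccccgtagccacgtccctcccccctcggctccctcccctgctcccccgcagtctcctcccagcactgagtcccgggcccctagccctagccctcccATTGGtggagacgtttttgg
Col5a1: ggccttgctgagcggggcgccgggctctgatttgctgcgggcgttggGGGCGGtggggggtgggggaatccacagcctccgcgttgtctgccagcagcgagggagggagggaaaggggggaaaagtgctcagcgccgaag
Col3a1: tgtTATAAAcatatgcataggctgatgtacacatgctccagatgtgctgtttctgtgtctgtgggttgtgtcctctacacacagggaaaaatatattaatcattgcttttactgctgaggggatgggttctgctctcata

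These windows lie at chr6:4505498-4505637 (+), chr2:27886305-27886444 (+) and chr1:45311418-45311557 (+). The Col1a2 window lies wholly inside the annotated gene, which starts at chr6:4504814, so the RefSeq start used differs from the outermost annotated one. For Col1a2, 1 of the CCAAT matches begins at that RefSeq start itself. The Col1a2 window holds 2 matches to CCAAT, the Col5a1 window 1 match to GGGCGG, and the Col3a1 window 1 match to TATAAA. In the full RefSeq windows, which reach further on both sides, Col1a2 and Col5a1 each held 2 matches to GGGCGG, and none of the 3 held TGTGGT. Of the other called members, Col11a2 held 1 match to TATAAA and 2 to GGGCGG. Col11a1 held 1 match to CCAAT and 2 to GGGCGG. Of the uncalled ones, Col5a3 held 1 match to CCAAT and 3 to GGGCGG, Col27a1 held 2 to GGGCGG, and Col24a1 held none. The matches thus did not sort the members by call. Over the full windows of 32851 RefSeq promoters, CCAAT was found in 37.4%, GGGCGG in 35.7%, TATAAA in 8.32% and the Runx motif TGTGGT in 16.8%. The matches describe the sequence without showing that a factor binds there.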

How the data were processed

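RNA of microdissected OF capillaries with surrounding cells was sequenced in 5 juvenile and 4 adult libraries. The authors prepared libraries with a low-input SMART-Seq kit and deposited 1 table of raw counts per library, not normalised or filtered. The submitters' processing notes name TopHat2, Bowtie2, featureCounts and GRCm38/mm10, while versions, strand setting and multi-mapping are not given in the sources used here. Identifiers were matched to GENCODE vM21 symbols (37693 of 39179 genes, at least 99.3% of each library's counts). No pair of libraries was a copy of another (36 pairs compared).

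Ages were compared over all genes with edgeR 4.0.16 under R 4.3.3 (filterByExpr, TMM, quasi-likelihood F test without covariates, Benjamini-Hochberg adjustment, calls at an adjusted p under 0.05). Counts normalised by TMM are printed per library. Ratios of chains used 0.5 added counts and an exact permutation test. Levels per length used the transcript with the longest coding sequence and, like the profiles, library totals scaled by TMM. Profiles used log2 CPM with a prior count of 2, among genes above a mean of 3.

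Depth was 4856833 to 8077362 counts per library, and limits from it cover counting error only, since PCR reads are not independent molecules. Alternatives were DESeq2 size factors, upper-quartile scaling, totals without the members or without blood and marrow markers, DESeq2 1.42.0, limma 3.58.1 voom, no filter, a floor of 10 counts per library, a replicate block, the 7 libraries with more Xist than Ddx3y counts, and each library left out. The edgeR fit was also run on counts simulated from its own fitted model, which cannot test the part of sex or the mix of cells in the real data.

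The genes named are the members, Col2a1, for each list at most the 2 genes with the smallest p in each direction among those called (none called: the 1 with the smallest p), and the 2 nearest profiles of each member. Bglap, Bglap2, Comp, Col9a1, Col9a2, Col9a3, Col10a1, Acan, Matn1, Clec3b, Acp5, Atp6v0d2, Csf1r, Cd68, Xist and Ddx3y were named outside this rule after their values were seen. The members and gene lists were chosen with earlier results of these data known.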

Additional observations from a re-analysis of the deposited data

Results flagged for a closer look

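In 5 of 44 groups of values (10 members, Col2a1 and 11 ratios at each age), 1 library stood apart from the others of its age by Dixon's criterion, where chance alone gives about 1 in 20 groups, or 2.2 of 44. Col3a1 accounted for 2 of them. Juvenile library 2 had 992 normalised read counts of Col3a1 against 202 to 403 in the other juvenile libraries, and adult library 2 had 310 against 692 to 706. Col27a1 had 991 counts in juvenile library 1 against 285 to 448 in the others. Col2a1 had 19566 counts in adult library 2 against 3316 to 5440 in the other adult libraries. The 10 other chondrocyte markers summed to 1900 CPM in that library and to 16.1 to 259 CPM in the other adult ones. The log2 ratio of Col1a1 to Col1a2 was 0.19 in juvenile library 1 and -0.25 to -0.16 in the other juvenile libraries, so that this was the only library with more Col1a1 than Col1a2 counts.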

How the results depend on the processing

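The 6 calls among the members were kept under the other scalings, DESeq2, limma and both filters, and no alternative called a member higher in adult libraries. With the replicate block 3 members were called (Col1a1, Col1a2, Col5a1), 7 genes of the collagen-related lists were higher in juvenile and 0 in adult libraries. The 7 libraries other than juvenile 4 and 5 gave the same 3 members, with list counts of 7 and 0, though not all the same genes (Sparc was called in them and not with the block). DESeq2 called 28 genes of the lists higher in juvenile libraries. Leaving out 1 library at a time gave 4 to 6 members and 11 to 18 genes of the lists. Over all genes, 520 were called by the reported test, 1490 by DESeq2, 89 with the block and 73 with the 7 libraries.

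Some differences near 0 changed sign. Col5a1 to Col1a1 was 0.07 by medians and -0.08 to 0.05 with 1 library left out, Col11a2 to Col11a1 was 0.03 by medians and -0.21 to 0.06, and Col5a3 to Col5a1 was -0.69 to 2.49, the negative value without adult 1, and 0.39 with a pseudocount of 5. Col27a1 was 0.01 with the 7 libraries and -0.56 to 0.27 with 1 left out. None of these was called, and the cause was not tested.

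The labels number the replicates of each age without saying that same-numbered libraries belong together. Deviations of same-numbered libraries had correlations of r = 0.0268, -0.0318, 0.0187 and 0.0303 for numbers 1 to 4. Differently numbered libraries were not compared, so this cannot decide whether a number stands for a shared batch. The block served as an alternative. In it juvenile library 5 has no adult library of the same number and adds nothing to the age difference. The block terms also leave less to estimate the spread from. A call lost with the block therefore does not by itself show a batch. With 5 and 4 libraries, no single ratio can have an exact permutation p under 0.00794.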
